A study of Mus musculus with 5 samples.

Results

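The genes of the V(D)J recombinase and of the classical end-joining machinery were examined in sorted dermal group 2 innate lymphoid cells (dILC2s) of WT and *Rag1*-/- mice. They were chosen by name, as *Rag1*, *Rag2*, *Dntt*, *Prkdc*, *Xrcc5*, *Xrcc6*, *Xrcc4*, *Lig4*, *Nhej1* and *Dclre1c*, and all 10 were found among the 47729 genes counted. The cells came from the ear skin of female C57BL/6 mice and of female *Rag1*-/- mice aged 8 to 13 weeks, and were sorted as viable CD45+CD90hi cells without CD2/CD3 signal and sequenced without stimulation in culture. WT dILC2s were sequenced as 3 pools of 10 mice (pools 5, 6 and 13) and *Rag1*-/- dILC2s as 2 pools of 9 mice (pools 2 and 7) by the methods, whereas the labels give 16 *Rag1*-/- mice in all. The cell type label of the *Rag1*-/- libraries reads type 3 innate lymphoid cells, although the accompanying description calls the cells of both genotypes dILC2s. The *Rag1* allele and the exons it removes were not given in the sources used here.

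V(D)J recombination assembles the antigen receptor genes of developing T and B cells. RAG1 and RAG2 together cut the DNA beside V, D and J segments and leave hairpin ends on the coding side. The Ku proteins (XRCC5 and XRCC6) bind the ends and recruit the kinase DNA-PKcs (PRKDC), which activates the nuclease Artemis (DCLRE1C) to open the hairpins. Terminal deoxynucleotidyl transferase (DNTT) adds bases without a template, and XRCC4, XLF (NHEJ1) and DNA ligase IV (LIG4) seal the break. The recombinase and DNTT are known from lymphocyte precursors, whereas the end-joining proteins repair breaks in most cell types. Mice without RAG1 lack mature T and B cells.

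The WT pools held 32939428 to 39477243 counts, *Rag1*-/- pool 7 held 38922750 and *Rag1*-/- pool 2 only 8050562. A count of 3, taken as the most that a count of 0 allows, equalled between 0.076 and 0.0911 CPM (counts scaled to a library of 1000000) in WT, 0.0771 CPM in pool 7 and 0.373 CPM in pool 2, so the least could be seen of a low gene in pool 2. The libraries also differed in composition. The summed CPM of 16 pan-leukocyte genes were 860, 2147 and 2111 in WT pools 5, 6 and 13 and 6997 and 5912 in *Rag1*-/- pools 2 and 7, and 12 of these genes were called higher and none lower in *Rag1*-/-. The summed CPM of 8 keratinocyte genes were 33020, 25600 and 22160 in WT and 5303 and 13320 in *Rag1*-/- pools, with 3 called lower and none higher. Of all tested genes, 3.57% were called higher and 2.16% lower in *Rag1*-/-, by the edgeR thresholds given below. Since these are bulk samples, fewer cells of a type and less RNA per cell cannot be told apart, and the part of this shift in the values given here was not tested.

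The promoters of the genes that mark lymphocyte precursors differed in base composition from those of several end-joining genes. To show this difference, the 250 bases before the RefSeq start of *Rag1*, *Rag2*, *Dntt* and *Xrcc6* are given 5′ to 3′ on the strand of the gene (RefSeq, GRCm38.p6). They lie at chr2:101649533-101649782 on the minus strand, and at chr2:101624462-101624711, chr19:41029025-41029274 and chr15:82016119-82016368 on the plus strand. A RefSeq start can differ from the end of the gene span given below. That of *Xrcc6* lies inside its span (chr15:81987835-82040085), and those of *Rag1* and *Rag2* lie just outside theirs. Capitals mark motif matches on either strand. The motifs searched were the CCAAT box (CCAAT), the letters GGGCGG of the GC box, and for the TATA box the letters TATAAA.
Rag1: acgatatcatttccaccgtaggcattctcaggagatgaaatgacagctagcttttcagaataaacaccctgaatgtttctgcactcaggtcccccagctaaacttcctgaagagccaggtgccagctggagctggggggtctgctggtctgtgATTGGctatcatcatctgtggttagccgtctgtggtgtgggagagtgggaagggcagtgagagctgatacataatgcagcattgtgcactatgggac
Rag2: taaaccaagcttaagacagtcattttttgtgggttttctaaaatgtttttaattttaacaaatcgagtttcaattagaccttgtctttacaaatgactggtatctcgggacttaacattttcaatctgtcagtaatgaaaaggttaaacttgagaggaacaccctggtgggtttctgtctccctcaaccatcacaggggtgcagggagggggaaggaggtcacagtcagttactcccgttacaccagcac
Dntt: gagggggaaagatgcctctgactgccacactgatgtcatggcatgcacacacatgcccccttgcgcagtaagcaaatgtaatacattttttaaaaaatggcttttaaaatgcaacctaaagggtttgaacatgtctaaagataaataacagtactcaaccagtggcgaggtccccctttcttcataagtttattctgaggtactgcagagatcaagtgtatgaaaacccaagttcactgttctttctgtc
Xrcc6: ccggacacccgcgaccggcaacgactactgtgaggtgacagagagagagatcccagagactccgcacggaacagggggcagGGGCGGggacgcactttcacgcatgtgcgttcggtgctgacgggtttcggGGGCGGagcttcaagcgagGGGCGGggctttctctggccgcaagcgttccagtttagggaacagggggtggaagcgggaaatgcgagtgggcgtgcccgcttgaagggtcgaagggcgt

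The *Rag1* window held 1 match, CCAAT on the opposite strand, whose first base lay 97 bases before the start. The windows of *Rag2* and *Dntt* held none of the 3 motifs, and that of *Xrcc6* held the GC box 3 times. Matches to different motifs did not overlap. Of 32851 promoter windows of the same length, 33.8% held CCAAT, 32.7% the GC box and 12.4% TATAAA, so each of these matches is common. The ratio of observed to expected CpG was 0.19 for *Rag1*, 0.283 for *Rag2* and 0.185 for *Dntt*, all below the median of 0.373 over those windows. It was 0.412 for *Xrcc5*, 0.426 for *Dclre1c* and 0.615 for *Nhej1*. *Xrcc4* had a ratio of 0.912, the pair of *Lig4* starts 0.91 and 0.958, and *Xrcc6* 1.011, higher than in 94.7% of windows. *Prkdc* had no entry.

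The targeted gene was read first. *Rag1* (chr2:101638282-101649501, minus strand) was read 4, 0 and 5 times in WT pools 5, 6 and 13, and 5 and 48 times in the pools 2 and 7 labelled *Rag1*-/-. This equalled 0.103, 0 and 0.152 CPM in WT and 0.621 and 1.23 CPM in *Rag1*-/-. Both *Rag1*-/- pools thus lay above every WT pool in CPM, and no WT pool reached above 5 counts. Pool 2 held only 5 counts as well. Its exact Poisson interval for counting error, 0.202 to 1.449 CPM, overlapped those of WT pools 5 (0.0281 to 0.264 CPM) and 13 (0.0493 to 0.354 CPM). The interval of pool 7, 0.909 to 1.635 CPM, lay above those of all WT pools. *Rag1* transcripts were therefore not lower in the libraries labelled *Rag1*-/-. A count over the whole gene does not show which exons were read, so it does not check the label, and the genotypes are named here as labelled.

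The mean *Rag1* level was 0.085 ± 0.0775 CPM over the WT pools (SD, n = 3), against 0.927 ± 0.433 CPM over the *Rag1*-/- pools (SD, n = 2). The fitted log2 fold change of *Rag1*-/- over WT was 3.53 (SE 1.03, 95% interval 1.11 to 5.95), with an unadjusted p of 0.0106 and an adjusted p of 0.0866 in edgeR, above the threshold of 0.05. *Rag1* passed the filter on low counts only through the *Rag1*-/- pools, where it was high. The p and the interval of this filtered fit are thus not independent support for the difference. With DESeq2 the log2 fold change was 3.52 and the adjusted p 0.0275. In edgeR with no filter on low counts they were 3.47 and 0.014, so the call depended on the tool and on the filter. Of the 53 *Rag1*-/- counts, 48 came from pool 7, and without pool 7 the gene had too few counts to be tested. When another library was left out, the log2 fold change lay between 2.94 and 4.18 and the adjusted p in edgeR between 0.116 and 0.18. Of the 6608 exon bases of *Rag1*, 80 (1.2%) are shared with *B230118H07Rik* on the same strand, and the library kit does not mark strand.

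*Rag2* (chr2:101624718-101632529, plus strand), which encodes the partner that RAG1 needs to cut, had 0 counts in every pool. This allows up to 0.0773, 0.076 and 0.0911 CPM in WT pools 5, 6 and 13 and up to 0.373 and 0.0771 CPM in *Rag1*-/- pools 2 and 7. In pool 7 the *Rag1* value of 1.23 CPM and its exact Poisson interval (0.909 to 1.635 CPM) lay above the *Rag2* limit. In pool 2 the *Rag1* value of 0.621 CPM lay above the *Rag2* limit of 0.373 CPM. Its interval (0.202 to 1.449 CPM) included that limit, so counting error did not separate the genes there. CPM does not allow for gene length, and *Rag1* has 6608 exon bases against 3424 for *Rag2*.

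*Dntt* (chr19:41029275-41059523, plus strand) had 10 counts in WT pool 13, which equalled 0.304 CPM (exact 95% Poisson interval 0.146 to 0.558), and 0 counts in the other 4 pools. The limits of WT pools 5 and 6 and of *Rag1*-/- pool 7 lay below this interval, whereas that of pool 2 lay inside it, so a count of 0 in pool 2 does not exclude a level of this size. *Rag2* and *Dntt* did not pass the filter on low counts and were not tested. Of 6 other genes of early T and B cells, 4 had too few counts to be tested. *Vpreb1* and *Igll1*, parts of the surrogate light chain of B cell precursors, each had 1 count in all, *Ptcra*, the pre-T cell receptor alpha chain, was counted 0, 5 and 1 times in WT and 0 and 1 times in *Rag1*-/-, and *Vpreb3* 0, 3 and 0 times in WT and 0 and 4 times in *Rag1*-/-.

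**Figure D1:**
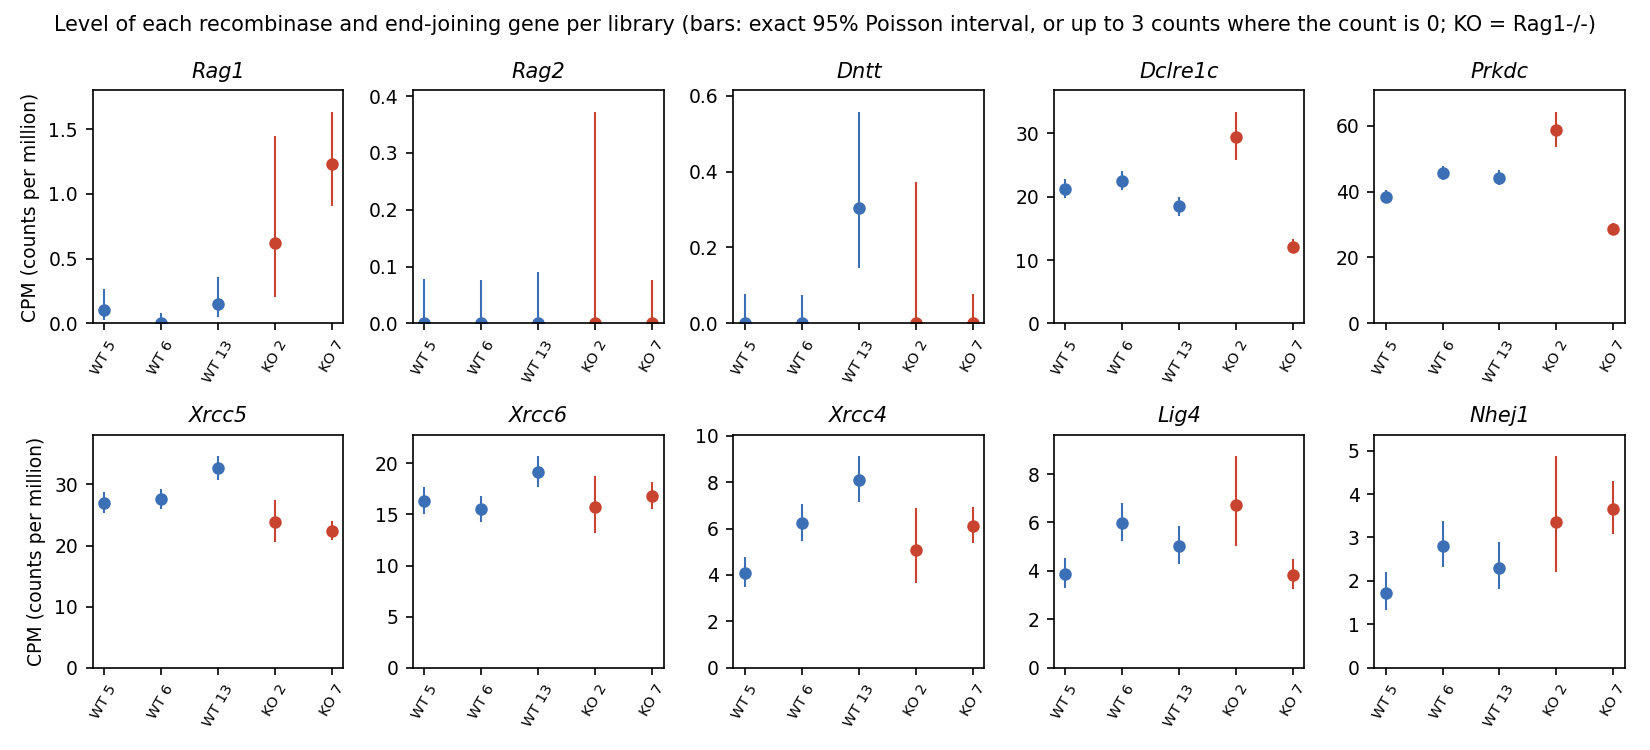
Level of each of the 10 genes in every pool, in CPM (vertical axes, linear from 0), with WT pools in blue, *Rag1*-/- (KO) pools in red and bars for the exact 95% Poisson interval or, at a count of 0, up to 3 counts. *Rag1* lies higher in both *Rag1*-/- pools (0.621 and 1.23 CPM) than in any WT pool (at most 0.152 CPM), *Rag2* is at 0 throughout, and *Prkdc* and *Dclre1c* are higher in *Rag1*-/- pool 2 and lower in pool 7 than in WT.

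The end-joining genes were measured in every pool. Of the 10 genes, 8 passed the filter, and none of the 8 was called in edgeR, which took an adjusted p under 0.05 together with a log2 fold change beyond 1 in either direction, where 5.73% of all 19011 tested genes were called. At an unadjusted p under 0.05 stood 1 of the 8, *Rag1*, against 26.4% of all tested genes. DESeq2 called 1, *Rag1*, where it called 8.22% of the genes it tested, and limma on the deposited signal called 0. The CPM of the genotypes did not overlap for 3 of the 8 genes, against 45.9% of all tested genes. *Rag1* and *Nhej1* were above every WT pool in both *Rag1*-/- pools, as were 21.9% of all tested genes, and *Xrcc5* was below every WT pool, as were 24%. Since *Rag1* passed the filter only through its *Rag1*-/- pools, its place in these counts is no support for a difference.

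*Prkdc* (chr16:15637866-15842235), which encodes DNA-PKcs, had 38.5, 45.7 and 44.3 CPM in WT pools 5, 6 and 13 and 58.75 and 28.7 CPM in *Rag1*-/- pools 2 and 7. The *Rag1*-/- pools lay on either side of the whole WT range. Their mean of 43.7 ± 21.2 CPM (SD, n = 2) stood beside a WT mean of 42.8 ± 3.80 CPM (SD, n = 3), with a log2 fold change of 0.04 (SE 0.30, 95% interval -0.65 to 0.74, adjusted p = 0.951 in edgeR).

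*Dclre1c* (chr2:3424131-3464130), the gene of the hairpin-opening nuclease Artemis, had the same order of pools. It had 21.3, 22.5 and 18.5 CPM in WT pools 5, 6 and 13 and 29.4 and 12.1 CPM in *Rag1*-/- pools 2 and 7. The log2 fold change was 0.00 (SE 0.36, 95% interval -0.84 to 0.84, adjusted p = 0.997 in edgeR), an interval that spans changes of nearly the size of the call threshold in either direction. Without pool 2 the log2 fold changes of *Dclre1c* and *Prkdc* were -0.70 and -0.51, and without pool 7 they were 0.44 and 0.40, none of them called.

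*Lig4* (chr8:9969049-9977686), whose product is the ligase of the pathway, had 3.87, 5.98 and 5.01 CPM in WT and 6.71 and 3.83 CPM in *Rag1*-/- pools 2 and 7. Thus 3 of the 8 tested genes, *Prkdc*, *Dclre1c* and *Lig4*, were above every WT pool in *Rag1*-/- pool 2 and below every WT pool in pool 7. This pattern, chosen after the values were seen, was held by 7.90% of all tested genes, and the reverse by 6.49% of them and by none of the 8. For *Lig4* the gap to the lowest WT pool, 3.83 against 3.87 CPM, was smaller than counting error.

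The ratio of pool 2 to pool 7 was 2.43 for *Dclre1c* (exact 95% interval 2.07 to 2.84), 2.045 for *Prkdc* (1.83 to 2.28) and 1.75 for *Lig4* (1.26 to 2.41). That these ratios are above 1 follows from the choice of the 3 genes. Over 14121 genes with at least 10 counts in every pool, the median of this ratio was 1.01 and the 10th to 90th percentile 0.555 to 1.97. The ratio of *Dclre1c* was thus higher than in 94.3% of those genes, that of *Prkdc* higher than in 91.0% and that of *Lig4* higher than in 86.3%.

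Between the *Rag1*-/- pools the Ku genes differed less than *Prkdc*, *Dclre1c* and *Lig4*. Among the WT pools the ratio of the highest to the lowest was 1.21 for *Xrcc5* and 1.24 for *Xrcc6*. It was 1.19 for *Prkdc*, 1.22 for *Dclre1c* and 1.55 for *Lig4*. *Xrcc5* (chr1:72307421-72394952) had 27.0, 27.6 and 32.7 CPM in WT pools 5, 6 and 13 and 23.85 and 22.4 CPM in *Rag1*-/- pools 2 and 7. Both *Rag1*-/- pools were lower than every WT pool, but the log2 fold change of -0.30 (SE 0.19, 95% interval -0.75 to 0.16) had an adjusted p of 0.381 in edgeR. *Xrcc6* (chr15:81987835-82040085), its partner in the Ku dimer, had 16.3, 15.5 and 19.2 CPM in WT and 15.8 and 16.8 CPM in *Rag1*-/-, and the groups overlapped. Its log2 fold change was -0.02 (SE 0.22, 95% interval -0.54 to 0.49, adjusted p = 0.964 in edgeR). The ratio of pool 2 to pool 7 was 1.06 for *Xrcc5* and 0.937 for *Xrcc6*. *Xrcc6* shares 344 exon bases (7.7%) with *Desi1* on the opposite strand, so reads there cannot be told apart.

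The remaining genes of the ligation step were low. *Xrcc4* (chr13:89774027-90089608), the scaffold of the ligase, had 4.10, 6.23 and 8.11 CPM in WT pools 5, 6 and 13 and 5.09 and 6.115 CPM in *Rag1*-/- pools 2 and 7. Both *Rag1*-/- pools lay inside the WT range, and the highest WT pool was 1.98 times the lowest. The log2 fold changes of *Xrcc4* (-0.09, SE 0.37, 95% interval -0.96 to 0.79) and of *Lig4* (0.09, SE 0.38, 95% interval -0.80 to 0.98) had adjusted p-values of 0.918 and 0.915 in edgeR. *Nhej1* (chr1:74967139-75125200), the gene of XLF, had 1.73, 2.81 and 2.31 CPM in WT and 3.35 and 3.65 CPM in *Rag1*-/- pools. Its *Rag1*-/- mean of 3.50 ± 0.208 CPM (SD, n = 2) lay above the WT mean of 2.28 ± 0.543 CPM (SD, n = 3), but with a log2 fold change of 0.65 (SE 0.39, 95% interval -0.26 to 1.57) the adjusted p was 0.337 in edgeR.

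**Figure D2:**
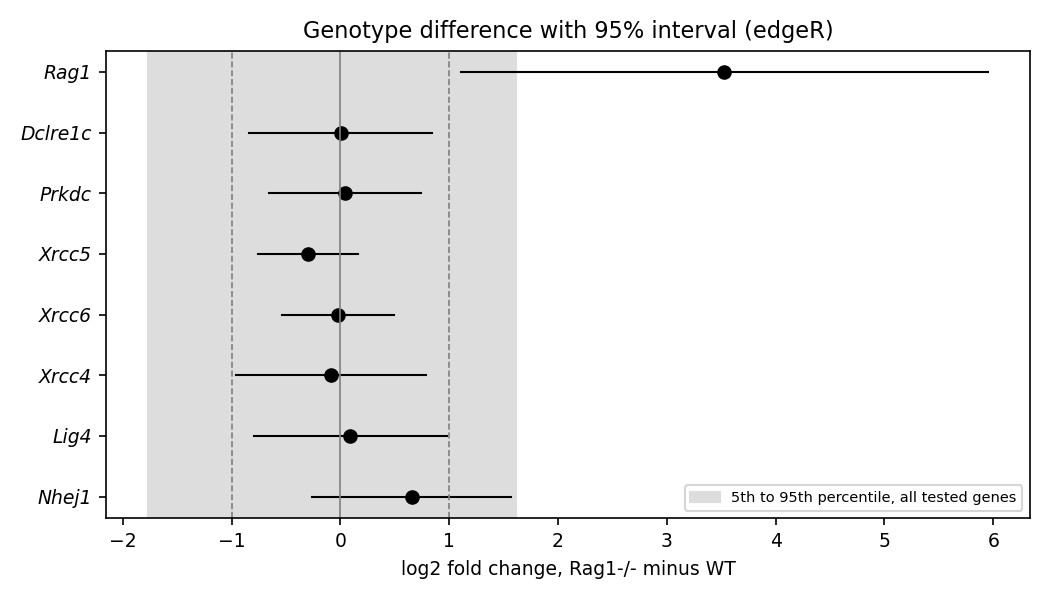
Log2 fold change of *Rag1*-/- over WT (horizontal axis) with its 95% interval for the 8 tested genes, with dashed lines at the call threshold of 1 in each direction and a grey band for the 5th to 95th percentile of all tested genes. The interval of *Rag1*, which passed the filter only through the *Rag1*-/- pools, runs from 1.11 to 5.95. Those of the 7 end-joining genes all include 0.

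Levels between genes were compared as CPM per kilobase of exon (RPKM over the GENCODE M21 exon union, which lowers genes with long rarely used exons). *Xrcc5* was the highest, from 10.6 to 12.8 RPKM in WT and from 8.78 to 9.33 RPKM in *Rag1*-/-, and overlapped no other gene. *Xrcc6* followed with 3.46 to 4.29 RPKM in WT, and *Prkdc* with 2.92 to 3.46 RPKM in WT. In WT pool 6 both genes were at 3.46 RPKM. In the *Rag1*-/- pools *Prkdc* spanned 2.18 to 4.46 RPKM and *Xrcc6* 3.52 to 3.76 RPKM, so their order was not settled in either genotype. *Dclre1c* (1.98 to 2.42 RPKM in WT, 1.30 to 3.16 in *Rag1*-/-) and *Nhej1* (1.55 to 2.52 RPKM in WT, 3.00 to 3.26 in *Rag1*-/-) overlapped each other in both genotypes. *Xrcc4* (0.973 to 1.92 RPKM in WT, 1.21 to 1.45 in *Rag1*-/-) and *Lig4* (0.743 to 1.15 RPKM in WT, 0.736 to 1.29 in *Rag1*-/-) overlapped as well. *Rag1* stood lowest of the tested genes, at 0 to 0.0230 RPKM in WT and 0.0940 to 0.187 RPKM in *Rag1*-/-. *Dntt* in WT pool 13 had 0.133 RPKM. The plot of level against promoter CpG sets these levels beside the promoter ratios given above. It is a description of 9 genes, with no test.

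**Figure D3:**
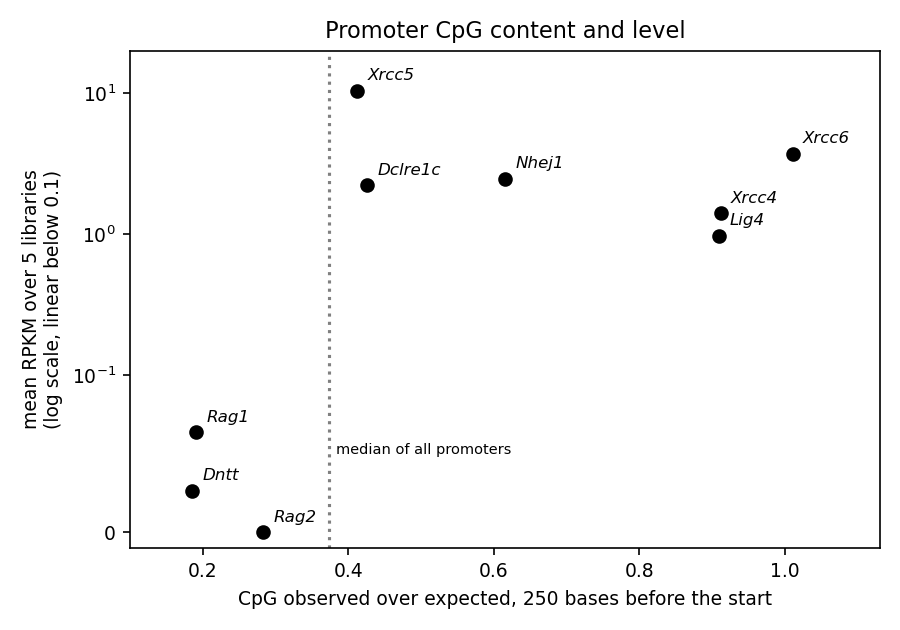
Mean RPKM over the 5 pools (vertical axis, logarithmic above 0.1 and linear below it) against the ratio of observed to expected CpG in the 250 bases before the start (horizontal axis, no unit), 1 point a gene, with 1 start of *Lig4* shown, and a dotted line at the median of 32851 windows. *Rag1*, *Rag2* and *Dntt* lie at ratios of 0.185 to 0.283, left of the median of 0.373 and below the other genes, whose ratios run from 0.412 to 1.011.

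The genes around the recombinase locus were compared next, since *Rag1* and *Rag2* lie beside each other. Of the 11 genes, *Rag1* included, whose lowest coordinate lies within 500 kb of that of *Rag1*, 5 were tested beside *Rag1*, and none of these was called in edgeR, DESeq2 or limma. At an unadjusted p under 0.05 in edgeR stood 2, *Prr5l* and *Ldlrad3*, against 26.4% of all tested genes. Of all tested genes, 5.73% were called in edgeR, and 45.9% had CPM that did not overlap between the genotypes. *B230118H07Rik*, the third gene of the locus, which spans both *Rag* genes, had 6.19, 4.15 and 5.28 CPM in WT pools 5, 6 and 13 and 6.71 and 8.915 CPM in *Rag1*-/- pools 2 and 7. The groups did not overlap, but the log2 fold change of 0.63 (SE 0.32) had an adjusted p of 0.258 in edgeR. The annotated start of *B230118H07Rik*, base 101649532, directly adjoins the *Rag1* window shown above.

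*Traf6*, an adaptor of interleukin-1 and Toll-like receptor signalling, overlapped between the genotypes, with 87.0 to 100.9 CPM in WT and 116.6 and 95.3 CPM in *Rag1*-/- pools 2 and 7 (log2 fold change 0.21, SE 0.19, adjusted p = 0.533 in edgeR). *Prr5l*, a partner of mTOR complexes, had 3.445 to 4.25 CPM in WT and 8.695 and 6.47 CPM in *Rag1*-/-, which did not overlap (log2 fold change 1.04, SE 0.30, adjusted p = 0.0879 in edgeR). With DESeq2 its adjusted p was 0.0256, and only its log2 fold change of 0.988, just under 1, kept it from a call. *Ldlrad3*, a membrane protein related to the LDL receptor, did not overlap in the other direction, with 43.6 to 48.6 CPM in WT and 17.3 and 33.9 CPM in *Rag1*-/- (log2 fold change -0.80, SE 0.31, adjusted p = 0.155 in edgeR). Without pool 7 *Ldlrad3* was called (-1.49, adjusted p = 0.0141), and without pool 2 its log2 fold change was -0.38. *Commd9* overlapped (log2 fold change -0.31, SE 0.30, adjusted p = 0.559 in edgeR). The genes not tested had at most 28 counts in the WT pools together.

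**Figure D4:**
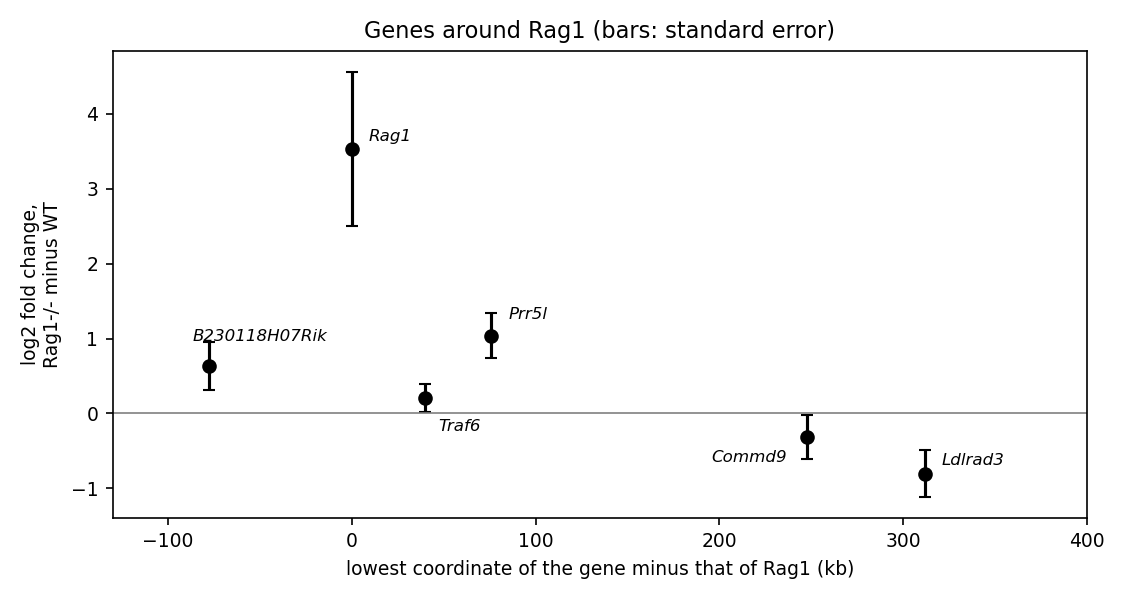
Log2 fold change of *Rag1*-/- over WT (vertical axis, bars for the standard error) against the distance in kb between the lowest coordinates of each tested gene and of *Rag1* (horizontal axis). *Rag1* has the highest value at 3.53, and the neighbours lie between -0.80 (*Ldlrad3*) and 1.04 (*Prr5l*), on both sides of 0.

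Other genes of DNA repair and of *Rag* regulation were then described by lists. Of the 78 genes listed, 77 were found and 72 tested, of which 1 was called higher and 1 lower in *Rag1*-/- in edgeR, against 3.57% of all tested genes called higher and 2.16% called lower. Their median log2 fold change was 0.13, beside 0.02 over all tested genes, whose 5th to 95th percentile ran from -1.77 to 1.61. DESeq2 called 6 of the 72 and limma 3. An unadjusted p under 0.05 in edgeR was held by 18 of the 72, beside the 26.4% of all tested genes against which the counts of each list are to be read.

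None of the 11 end-joining partners, such as polymerases and end-cleaning enzymes, was called in edgeR, DESeq2 or limma, and 2 had an unadjusted p under 0.05 in edgeR. Their median log2 fold change was 0.27. *Poll*, a gap-filling polymerase, had a log2 fold change of 0.86 (SE 0.39, adjusted p = 0.213 in edgeR), and *Cyren*, an inhibitor of end joining, one of 0.64 (SE 0.39, adjusted p = 0.348 in edgeR).

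Among 16 tested genes that sense and signal breaks, the median was 0.10, none was called by the 3 tools, and 1 had an unadjusted p under 0.05, *Parp1*. *Parp1*, which binds DNA breaks, had 37.7 to 39.4 CPM in WT and 57.0 to 64.1 CPM in *Rag1*-/-, and its log2 fold change of 0.69 (SE 0.18) had an adjusted p of 0.0661 in edgeR. With DESeq2 its adjusted p was 0.0337, and it was not called there because its log2 fold change of 0.65 was under 1. *Rad50*, of the complex that tethers broken ends, had 26.9 to 37.6 CPM in WT and 78.0 and 29.6 CPM in *Rag1*-/- pools 2 and 7 (log2 fold change 0.73, SE 0.38, adjusted p = 0.271 in edgeR). It was called without pool 7 (1.20, adjusted p = 0.0273) and had a log2 fold change of -0.07 without pool 2.

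The 6 genes of alternative end joining had a median log2 fold change of -0.05, with none called by the 3 tools and 1 at an unadjusted p under 0.05. *Polq*, its polymerase, had 12.9 CPM in *Rag1*-/- pool 2 and 2.98 CPM in pool 7, on either side of the WT range of 3.52 to 5.41 CPM. *Lig3*, its ligase, had a log2 fold change of -0.50 (SE 0.20, adjusted p = 0.165 in edgeR). The 14 genes of homologous recombination had a median of 0.23, none called by the 3 tools and 2 at an unadjusted p under 0.05. The largest changes were those of *Rad51b* (-1.09, SE 0.60, adjusted p = 0.303 in edgeR), a paralogue of the strand-exchange recombinase, and of *Exo1* (-0.78, SE 0.41, adjusted p = 0.275 in edgeR), a nuclease that resects ends.

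Of 8 genes for cofactors and turnover of the RAG proteins, none was called by the 3 tools, 2 had an unadjusted p under 0.05, and the median was -0.27. *Hmgb2*, a DNA-bending protein that aids RAG cutting, had 13.7 to 18.3 CPM in WT and 24.4 to 28.3 CPM in *Rag1*-/- (log2 fold change 0.77, SE 0.22, adjusted p = 0.0799 in edgeR). *Cul4a*, the scaffold of a ubiquitin ligase, had 87.4 to 97.1 CPM in WT and 57.4 to 58.7 CPM in *Rag1*-/- (-0.65, SE 0.18, adjusted p = 0.0734 in edgeR). Neither was called in edgeR, where both missed the threshold on the adjusted p and that on the log2 fold change. With DESeq2 the adjusted p was 0.04 for *Hmgb2* and 0.0142 for *Cul4a*. There they were not called because the log2 fold changes of 0.73 and -0.69 were under 1 in size.

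**Figure D5:**
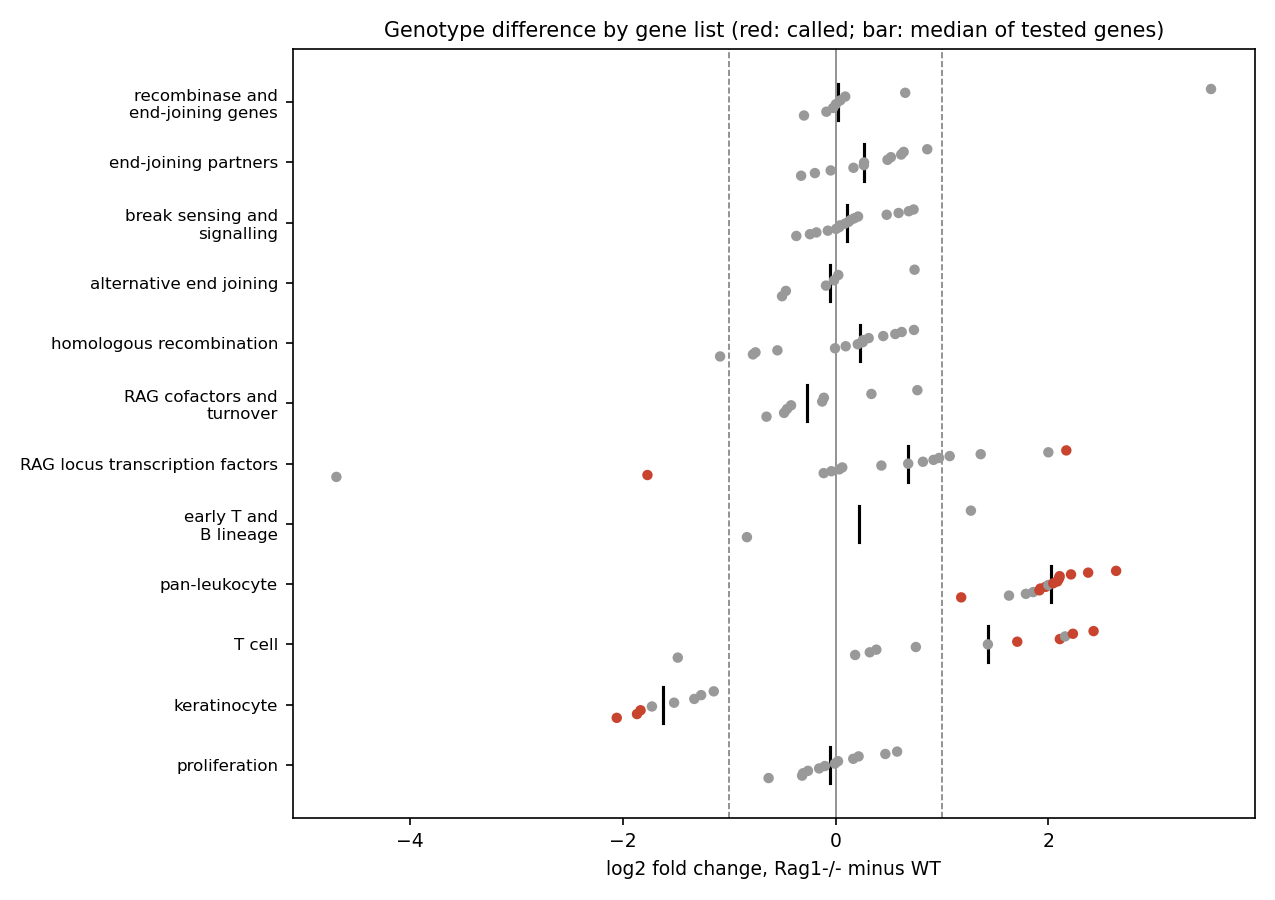
Log2 fold change of *Rag1*-/- over WT for each tested gene (1 point a gene) by list, with red points for called genes, a bar at the median of each list and dashed lines at the call threshold of 1 in each direction. The called genes of the 7 pathway lists are *Tcf7* and *Bcl11a*, both among the transcription factors, whose median is 0.68, whereas 12 of the 16 pan-leukocyte genes are called, around a median of 2.02. Of all tested genes, 5.73% are called.

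Both calls were in the list of transcription factors listed for the *Rag* locus, of which 15 of 16 were tested, with a median log2 fold change of 0.68 and 10 of the 15 at an unadjusted p under 0.05. *Tcf7*, which encodes TCF-1 of early T cells and innate lymphoid cells, had 47.0, 100.6 and 76.4 CPM in WT pools 5, 6 and 13 and 373 and 287 CPM in *Rag1*-/- pools 2 and 7. It rose, with a log2 fold change of 2.17 (SE 0.33, adjusted p = 0.0306 in edgeR). When CPM were instead scaled on the pan-leukocyte genes, the log2 fold change of *Tcf7* was 0.12 (adjusted p = 0.876) and that of *Rag1* 1.38 (adjusted p = 0.28), where the median over all tested genes moved to -2.19. *Bcl11a*, a factor of B cell and lymphoid precursors, had 22.7, 22.2 and 18.7 CPM in WT and 3.85 and 7.89 CPM in *Rag1*-/-. It fell, with a log2 fold change of -1.77 (SE 0.36, adjusted p = 0.0376 in edgeR), which became -4.02 (adjusted p = 8.3e-05) with the pan-leukocyte scaling. The calls of *Tcf7* and *Bcl11a* were lost when any WT pool or *Rag1*-/- pool 2 was left out, with log2 fold changes of 1.92 to 2.46 and of -1.87 to -1.36 in these fits, as were those of all other genes, with 3521 to 5200 genes at an unadjusted p under 0.05 in these fits. *Pax5*, the factor of B cell identity, was counted 93, 13 and 27 times in WT, against 0 and 2 times in *Rag1*-/- pools 2 and 7. Summed over the pools, its CPM ratio of WT to *Rag1*-/- was 28.1 (exact 95% interval 7.62 to 234.3, counting error only), and 12.97 (3.36 to 110.8) without WT pool 5, which held 93 of the 133 WT counts. Its adjusted p was 0.0802 in edgeR, not past the threshold, and *Pax5* was called by DESeq2 (adjusted p = 0.00832) and by edgeR with no filter (0.00333). *Pax5* passed the filter on low counts only through the WT pools, where it was high. Its filtered edgeR fit, and its place among the 10 of 15, are thus not independent support for the difference.

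The early T and B lineage list had 2 of 6 genes tested, *Themis* (log2 fold change 1.27, SE 0.72, adjusted p = 0.311 in edgeR) and *Arpp21* (-0.83, SE 0.81, adjusted p = 0.571 in edgeR), with a median of 0.22, no call by the 3 tools and none at an unadjusted p under 0.05. The log2 fold change of *Themis* was 0.18 without pool 2 and 1.92 without pool 7.

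Markers of the cell types that the sort could hold were read beside these values. Of 12 ILC2 markers, all tested, 4 were called higher and none lower, and their summed CPM were 1335, 2350 and 2019 in WT pools 5, 6 and 13 and 5714 and 3677 in *Rag1*-/- pools 2 and 7. The shares of all tested genes were 3.57% called higher and 2.16% called lower. Of 8 ILC3 markers, 4 were called higher and 1, *Ahr*, lower. Their median log2 fold change was 3.06, and 7 of the 8 were above every WT pool in both *Rag1*-/- pools. So were 11 of the 12 ILC2 markers (median 1.81), all 16 pan-leukocyte genes (median 2.02) and 21.9% of all tested genes. Without *Ahr*, which held 140 to 172 CPM in WT and 69.7 and 68.0 CPM in *Rag1*-/-, the other 7 ILC3 markers summed to 45.6, 59.6 and 52.1 CPM in WT pools 5, 6 and 13 and to 291.8 and 184 CPM in *Rag1*-/- pools 2 and 7. The defining ILC2 factor *Gata3* was at 199 to 319 CPM in WT and at 558 and 369 CPM in the *Rag1*-/- pools.

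Of 13 T cell markers, 11 were tested and 4 called higher, with sums of 65.55, 131.2 and 123.7 CPM in WT and 387.8 and 329.2 CPM in *Rag1*-/-. Called higher were 3.57% of all tested genes. Of the 11, 7 lay above every WT pool in both *Rag1*-/- pools and 1 lay below. The shares of all tested genes were 21.9% above and 24% below. *Trac*, the constant region of the T cell receptor alpha chain, was counted 69, 86 and 100 times in the WT and 105 and 269 times in the *Rag1*-/- pools, and rose with a log2 fold change of 2.11 (SE 0.40, adjusted p = 0.0349 in edgeR), which became -0.0094 with the pan-leukocyte scaling. A count over a constant region does not show whether the transcript came from a rearranged gene. *Cd3e*, the signalling chain of the receptor, had a log2 fold change of 0.32 (SE 0.30, adjusted p = 0.553 in edgeR). Of 8 B cell markers, 6 were tested and none was called by edgeR or limma, 1 was called by DESeq2, and 2 had an unadjusted p under 0.05 in edgeR. Their sums were 55.3, 29.6 and 37.7 CPM in WT and 59.9 and 25.15 CPM in *Rag1*-/-. *Pax5* was among the 6 tested, and among the 2, only through its WT pools.

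*Ptprc*, which encodes CD45, had 122 to 421 CPM in WT and 623 to 1177 CPM in *Rag1*-/- (log2 fold change 1.63, SE 0.51, adjusted p = 0.103 in edgeR), and the keratin gene *Krt14* had 5108 to 6118 CPM in WT and 1792 to 3049 CPM in *Rag1*-/- (log2 fold change -1.15, SE 0.33, adjusted p = 0.0841 in edgeR). DESeq2 called both *Ptprc* (adjusted p = 0.0129) and *Krt14* (0.003), as did edgeR with no filter (0.0014 and 0.013), and *Krt14* was also called without pool 7 (-1.68, adjusted p = 0.0174). Of 12 proliferation genes, none was called by the 3 tools and 1 had an unadjusted p under 0.05 in edgeR. Their median log2 fold change was -0.05, and that of *Mki67* was -0.32 (SE 0.34, adjusted p = 0.617 in edgeR) with 168 CPM in *Rag1*-/- pool 2 and 71.35 CPM in pool 7, on either side of the WT range of 129 to 162 CPM. The part of these cell types in the values of the recombinase and end-joining genes was not tested.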

How the data were processed

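RNA of the sorted cells was prepared with an unstranded TruSeq kit, and the submitters' processing notes name STAR 2.5 for alignment to GRCm38 and featureCounts 1.5.0-p1 for counting (per the labels, whose annotation release differs from that of the methods). The authors deposited raw counts per gene and a normalized signal per gene. Raw counts of 3 WT and 2 *Rag1*-/- pools were compared by the quasi-likelihood test of edgeR 4.0.16 (R 4.3.3) after filterByExpr and TMM scaling. P-values of 19011 genes were adjusted by Benjamini and Hochberg's method, and a call needed an adjusted p under 0.05 with a log2 fold change beyond 1 in either direction. DESeq2 1.42.0 and limma 3.58.1 on log2(deposited signal + 1) were alternatives, among others. CPM used all counts of a library. Intervals and the floor of 3 counts cover counting error only. The pools were taken as samples of different mice, and an exact permutation test of 3 against 2 pools cannot go below 0.1 (one-sided). Exon lengths and overlaps came from GENCODE M21, promoter windows from RefSeq. Named were all 10 genes, the genes within 500 kb of *Rag1*, the called genes and the 2 with the largest absolute log2 fold change of each pathway list, and defining markers, with others named where a count was small. *Paxx*, *Cyren*, *Shld1* and *Shld2* were matched by gene ID, and *Shld3* was not found. The genes and lists were chosen with earlier results of these data known. *Gata3* and *Ahr* were named after their values were seen. Some markers covered by the rule are not reported here.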

Additional observations from a re-analysis of the deposited data

How the results depend on the processing

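With 2 *Rag1*-/- pools, 1 of them at 8050562 counts, small changes of the low genes could not be detected. The number of genes called was 1090 and became 2459 with DESeq2, 13430 with scaling on the pan-leukocyte genes (16 higher, 13414 lower) and 2645 with no filter on low counts, and lay between 0 and 2409 when 1 library was left out. Of the recombinase and end-joining genes, 0 were called, 1 with DESeq2, 6 with the pan-leukocyte scaling, 1 with no filter, and 0 when any library was left out. Of the pathway genes, 2 were called, 6 with DESeq2, 52 with the pan-leukocyte scaling, 5 with no filter, 4 with at least 10 counts in every library, 4 with thinned libraries, and between 0 and 6 with 1 library left out. The pan-leukocyte scaling moved the median log2 fold change of all genes to -2.19, by its own construction, and with it the log2 fold changes of *Dclre1c* (-2.24), *Prkdc* (-2.15), *Lig4* (-2.03), *Nhej1* (-1.44), *Poll* (-1.47), *Cyren* (-1.57), *Rad50* (-1.43), *Parp1* (-1.54), *Polq* (-1.56), *Hmgb2* (-1.39), *Themis* (-0.71), *Ptprc* (-0.32), *Cd3e* (-1.80), *Trac* (-0.0094), *B230118H07Rik* (-1.66), *Traf6* (-2.01) and *Prr5l* (-1.16) turned negative. *Dclre1c*, whose log2 fold change was 0.00, was at -0.0424 with DESeq2, -0.027 with RLE scaling, -0.017 with library size alone, -0.0893 with no filter, -0.0388 with at least 10 counts and -0.14 with limma. *Prkdc* was at -0.0023 with DESeq2, -0.0466 with no filter, -0.0174 with thinned libraries and -0.0634 with limma. For these signs near 0 the cause was not tested. With 1 library left out, ranges that crossed 0 were -0.70 to 0.44 (*Dclre1c*), -0.51 to 0.40 (*Prkdc*), -0.17 to 0.0624 (*Xrcc6*), -0.33 to 0.15 (*Xrcc4*), -0.30 to 0.38 (*Lig4*), -0.0678 to 1.20 (*Rad50*), -0.58 to 1.41 (*Polq*), -1.01 to 0.10 (*Mki67*) and -0.87 to 0.0392 (*Commd9*). *Rag1* was positive in every fit that tested it, and was not tested with at least 10 counts in every library or with thinned libraries. No paired analysis was possible because the WT and *Rag1*-/- pools share no replicate number.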
